A study of Sus scrofa with 6 samples.

Results

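Cells meet doxorubicin (Dox), a cardiotoxic anthracycline used against cancer, with a small set of proteins that it acts on or that handle it, and the genes of these proteins are described here, namely its topoisomerase targets (TOP1, TOP2A, TOP2B), the reductases that act on it or on related quinones (CBR1, CBR3, POR, NQO1) and the pumps that carry it out of cells (ABCB1, ABCC1, ABCG2). A gene was included where a probe set of the Affymetrix Porcine Genome Array has its symbol as the only gene symbol in the platform annotation. Of the 10 genes listed, 8 were found, with 12 probe sets, among 6765 genes so named on the array. No probe set is annotated to TOP1 or to ABCC1 alone, and both were not analysed here.

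LV free wall myocardium was taken from 3 Dox-injected and 3 PBS-injected Large White piglets, with 1 animal per array. Per the design text deposited with the series, Dox-injected piglets received 1 intravenous dose of 2.0 mg/kg Dox at 8 days of age, PBS-injected piglets received phosphate-buffered saline, and tissue was collected after 3 weeks. The sample labels give an age of 28 days at collection. The text of the study gives another age at injection and at tissue collection and a range of doses, so the schedule given here is that of the deposited descriptions. The tissue was therefore sampled weeks after the drug was given, in young animals, and it holds all cell types of the ventricular wall.

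Topoisomerase II enzymes cut both strands of DNA, pass another stretch through the break and reseal it, and Dox traps them on the cut DNA. TOP2A is made by dividing cells, whereas TOP2B is also made by cells that no longer divide, cardiomyocytes among them, and in mice loss of Top2b from cardiomyocytes lessens Dox cardiotoxicity. Carbonyl reductases convert Dox to the alcohol doxorubicinol, flavoenzymes such as cytochrome P450 reductase pass a single electron to its quinone and so feed a cycle that releases superoxide, and ATP-driven pumps export it.

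The values are MAS5 signals (a linear intensity for each probe set), and the authors' software brings the trimmed mean of each array to the same level. Differences are given on the log2 scale as Dox minus PBS from a limma fit over 23999 probe sets, with Benjamini-Hochberg adjusted p-values over all of them. A probe set counted as called if it had a fold of 2 or more and its adjusted p did not exceed 0.05. The exact two-sided permutation test of 3 against 3 animals cannot give a p below 0.1. Signals of the Tag probe sets, synthetic sequences with no pig target, served as the background, and their highest signal was 3.1 to 5.5 on Dox arrays and 2.5 to 6.3 on PBS arrays. Signals of different probe sets were not compared as amounts of RNA, because probes differ in affinity.

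None of the 8 genes was called, and neither was any other probe set (0% of those tested by limma, with a smallest adjusted p of 0.428). The methods' t-test also called 0 after adjustment. At an unadjusted p of at most 0.05 limma gave 1421 probe sets lower (5.92%) and 869 higher (3.62%) on Dox arrays, and 1 of the 8 genes, TOP2A, was among the lower ones. The groups did not overlap, with Dox lower, for TOP2A and TOP2B, 2 of the 8 genes, against 10.1% of all probe sets. None of the 8 lay wholly above PBS, against 6.19% of all probe sets. The median difference of the 8 genes was -0.18, and that of all probe sets was -0.10. The 8 genes were taken at their brightest probe sets. Of all 6765 named genes so taken, 701 lay wholly below PBS and 613 wholly above, with a median of -0.07. Over the 12 probe sets of the 8 genes, 2 lay wholly below PBS and the median was -0.36. By their brightest probe sets 6 of the 8 genes were below 0, and the exceptions were ABCB1 and CBR1, the second of which did not rise above the Tag range on any array.

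**Figure D1:**
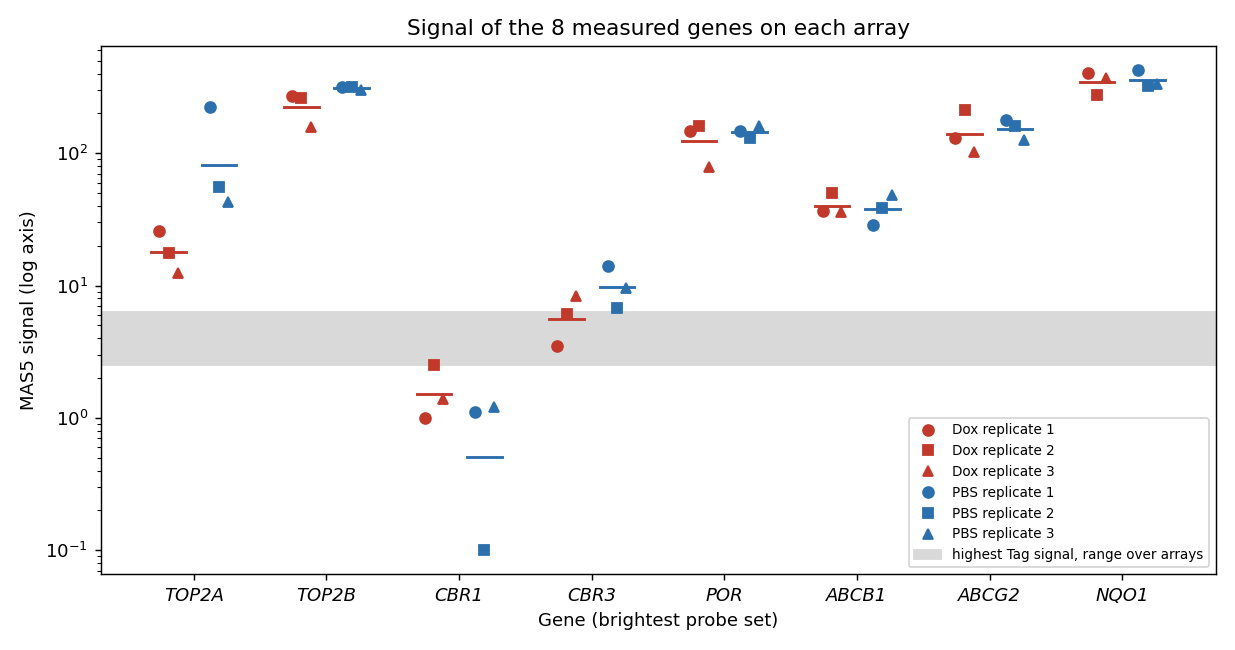
MAS5 signal (log axis) of the brightest probe set of each of the 8 measured genes on the 3 Dox arrays (red, left of each pair) and the 3 PBS arrays (blue, right), with symbols for the replicate number, horizontal lines at the geometric mean of each group and a grey band over the range of the highest Tag signal of the 6 arrays. TOP2A and TOP2B are lower on every Dox array than on every PBS array. CBR1 lies at or below the lower edge of the grey band, and the other genes overlap between groups.

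TOP2A, the topoisomerase of dividing cells, showed the lowest difference of the 8 genes, at its only probe set. Its signal was 25.9, 17.7 and 12.5 on the Dox arrays and 224.8, 55.1 and 42.9 on the PBS arrays. Every Dox array lay below every PBS array, and PBS replicate 1 stood far above the other PBS animals. The mean was 18.7 ± 6.76 in Dox-injected piglets and 108 ± 102 in PBS-injected piglets (SD, n = 3 each). The geometric mean in Dox-injected piglets was 0.221 of that in PBS-injected piglets, a log2 difference of -2.18 (SE 0.60, 95% confidence interval -3.56 to -0.80). The limma p was 0.00624 before and 0.521 after adjustment, and the exact permutation p was 0.1. The size of the difference depended on PBS replicate 1, since without it the log2 difference was -1.44 with an unadjusted limma p of 0.0104, while over all alternatives it ranged from -2.64 to -1.44 with adjusted p between 0.184 and 0.823. In whole tissue, fewer cells of a type and less RNA per cell cannot be told apart.

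TOP2A was lower together with other genes of dividing cells. Of 21 such genes listed, which cover cyclins, mitotic kinases, replication factors and nucleotide synthesis, 15 were measured, all 15 were below 0, and 12 were lower at an unadjusted limma p of at most 0.05, none of them after adjustment. The groups did not overlap for 14 of the 15 genes, MCM2 being the exception. Of all probe sets 5.92% were lower at that unadjusted p and 10.1% were lower without overlap. The median log2 difference was -1.78, between -0.77 for MCM5, a subunit of the replicative helicase, and -2.46 for RRM2, the small subunit of ribonucleotide reductase. CCNA2 and TYMS were near the background, above the Tag signal on only 1 and 2 arrays. With dim probe sets left out the median was -1.84. Cyclin B1 (CCNB1), which drives entry into mitosis, had signals of 31.1, 52.7 and 13.2 on Dox arrays and 293.8, 103.0 and 93.1 on PBS arrays.

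The summed signal of the 15 genes was 467.1 to 518.8 on Dox arrays and 877.6 to 2292.1 on PBS arrays, so the groups did not overlap, and PBS replicate 1 held the highest value here too. Without that array the median of the list was -1.04, and 9 genes were lower with an unadjusted limma p up to 0.05. Set against the mean log2 signal of this list on the same array, TOP2A differed by -0.51 log2 units, Dox minus PBS (exact permutation p = 0.3), and the groups overlapped. The proliferation genes MKI67, CDK1 and BUB1 were not analysed here, since no probe set is annotated to them alone.

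**Figure D2:**
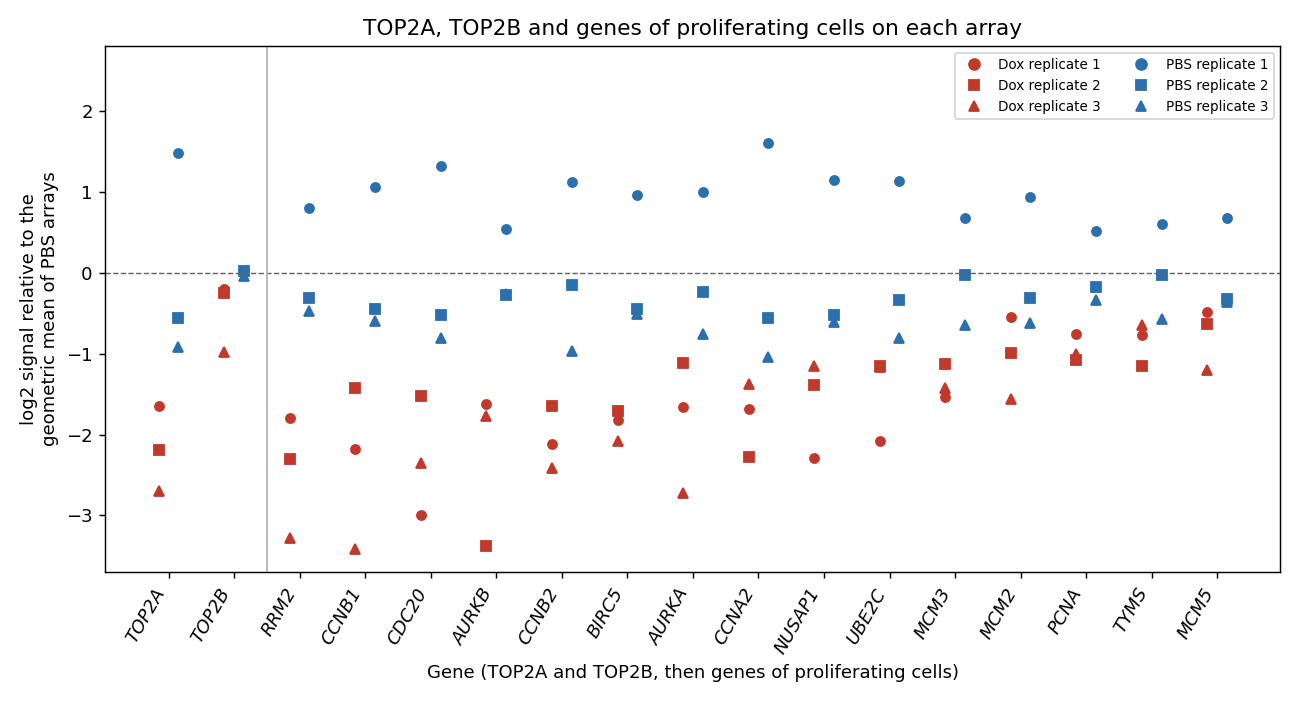
Log2 signal of TOP2A, TOP2B and 15 genes of proliferating cells on each of the 6 arrays, relative to the geometric mean of the PBS arrays for the same gene (dashed line at 0), with Dox in red to the left of PBS in blue and symbols for the replicate number. TOP2A on Dox arrays lies within the range of the proliferation genes, PBS replicate 1 lies highest for each of them and TOP2B varies far less.

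The genes whose log2 signal followed TOP2A most closely over the 6 arrays, among 4986 candidates, included MXD3, a MAX-binding transcription factor (Pearson r = 0.995), and TPD52 (r = 0.993). The 6 arrays share both groups and the high PBS replicate 1, so these coefficients are a description only. MXD3 had signals of 22.4, 20.8 and 18.8 on Dox arrays and 56.6, 33.4 and 29.6 on PBS arrays.

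TOP2B, the isoform also present in non-dividing cells, differed less. Its brightest probe set had signals of 270.6, 262.2 and 158.4 on Dox arrays and 316.9, 317.5 and 302.0 on PBS arrays. The groups did not overlap, but Dox replicates 1 and 2 lay close to the PBS values and Dox replicate 3 well below them. The mean was 230 ± 62.5 in Dox-injected piglets and 312 ± 8.78 in PBS-injected piglets (SD, n = 3 each). The log2 difference was -0.48 (SE 0.24, 95% confidence interval -1.03 to 0.07), with a limma p of 0.0805 before and 0.551 after adjustment and an exact permutation p of 0.1. Leaving out Dox replicate 3 gave -0.23, and leaving out Dox replicate 1 gave -0.61, where the unadjusted limma p was 0.0448. The second TOP2B probe set had signals of 24.1, 27.2 and 19.5 on Dox arrays and 27.2, 28.7 and 27.0 on PBS arrays. Here Dox replicate 2 tied with PBS replicate 1 and lay above PBS replicate 3, so the groups overlapped. The log2 difference of -0.24 (SE 0.29) had a limma adjusted p of 0.79.

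Within each array the log2 ratio of TOP2A to TOP2B removes any factor common to both probe sets. It lay between -3.89 and -3.39 on Dox arrays and between -2.82 and -0.50 on PBS arrays, so the groups did not overlap. The difference in the ratio, Dox minus PBS, was -1.70 log2 units (exact permutation p = 0.1), -0.97 without PBS replicate 1 and -1.94 with the second TOP2B probe set. An offset added to all signals before the log2 scale brought it to -1.10. The genes most like TOP2B over the 6 arrays were LOC733579, which the annotation does not describe further, LUC7L3, a splicing factor, and BLOC1S2, a subunit of a complex that builds lysosome-related organelles, with r of 0.999, 0.998 and 0.996. All of these had their lowest signal on Dox replicate 3, as TOP2B did.

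Of 15 other topoisomerases and break-processing proteins listed 6 were measured, all of them break-processing proteins and none a topoisomerase, with a median log2 difference of -0.48. At an unadjusted limma p of at most 0.05, 1 was lower and 0 were higher, against 5.92% and 3.62% of all probe sets. MRE11, a nuclease that trims broken DNA ends, had signals of 25.9, 15.3 and 12.6 on Dox arrays and 40.0, 40.7 and 29.0 on PBS arrays, with no overlap (log2 difference -1.08, SE 0.36, limma adjusted p = 0.521). XRCC5, the Ku80 subunit that holds broken ends for joining, lay the other way, with 167.5, 212.7 and 134.8 on Dox arrays and 102.2, 125.9 and 122.3 on PBS arrays (log2 difference 0.54, SE 0.24, limma adjusted p = 0.523). TDP2, which releases topoisomerase II from DNA ends, overlapped between groups at a log2 difference of -0.62, which was -0.40 without Dox replicate 3. RAD50 and ATM, partners of MRE11 in break sensing, each had 1 low value, on Dox replicate 3, and the median of the list was -0.16 without that array.

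CBR1 and CBR3 gave low signals in this tissue. CBR1, the main carbonyl reductase of Dox in humans, had 1.0, 2.5 and 1.4 on Dox arrays and 1.1, 0.1 and 1.2 on PBS arrays. All 6 values lay within the Tag range, so no fold change is given. Another probe set is annotated to both CBR1 and a second locus and was not used.

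CBR3, a close relative of CBR1 and near it on the same chromosome in the Sscrofa11.1 assembly with 7 annotated genes between them, was dim but above the Tag range on 5 of 6 arrays. Its signal was 3.5, 6.1 and 8.3 on Dox arrays and 14.0, 6.8 and 9.5 on PBS arrays. The groups overlapped, with the lowest value on Dox replicate 1 and the highest on PBS replicate 1. The log2 difference was -0.78 (SE 0.51, 95% confidence interval -1.94 to 0.37, limma adjusted p = 0.616, exact permutation p = 0.2), and between -1.07 and -0.44 when 1 array was left out (without Dox replicate 3 and without Dox replicate 1), and -0.25 with an offset before log2.

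Of 12 other carbonyl and aldo-keto reductases listed 4 were measured, and 0 passed an unadjusted limma p of 0.05 in either direction. AKR1CL1, an aldo-keto reductase, lay at 0.71 with overlap between groups, at 0.40 without Dox replicate 3, at 0.44 without PBS replicate 2 and at 0.21 with an offset before log2. AKR1A1, the aldehyde reductase, and AKR7A2, an aflatoxin aldehyde reductase, lay at -0.02 and -0.12 and changed sign under 1 or more alternatives. The median of the list was 0.24 with all 4 genes and -0.02 with dim probe sets left out, so it has no stable direction.

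The flavoenzymes overlapped between groups. POR, cytochrome P450 reductase, which supplies electrons to microsomal cytochromes P450, had signals of 146.7, 160.8 and 78.2 on Dox arrays and 147.1, 129.3 and 159.5 on PBS arrays. Dox replicate 3 lay far below the other 5 animals, which overlapped. The log2 difference was -0.24 (SE 0.30, 95% confidence interval -0.92 to 0.44, limma adjusted p = 0.798), and 0.09 without Dox replicate 3.

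NQO1, which reduces quinones to hydroquinones without the semiquinone step, had signals of 404.7, 276.8 and 367.9 on Dox arrays and 425.8, 322.0 and 333.7 on PBS arrays. The means were 349.8 ± 65.8 in Dox-injected piglets and 360.5 ± 56.9 in PBS-injected piglets (SD, n = 3 each). The groups overlapped widely. The log2 difference was -0.05 (SE 0.22, 95% confidence interval -0.54 to 0.44, limma adjusted p = 0.945), an interval that leaves room for changes of moderate size in either direction.

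Of 15 genes listed as other single-electron reductases and oxidases 8 were measured, with a median of -0.10, and 0 passed an unadjusted limma p of 0.05. The list also holds NQO2, although NQO2, like NQO1, reduces quinones without the semiquinone step. CYBA, the membrane subunit shared by several NADPH oxidases, lay below PBS without overlap at a log2 difference of -0.38, with 55.5, 66.7 and 56.0 on Dox arrays and 69.8, 80.7 and 81.1 on PBS arrays. FDX1, the mitochondrial electron carrier ferredoxin, lay above PBS without overlap at 0.24, and NQO2, a relative of NQO1, overlapped at 0.30, which was 0.16 without Dox replicate 3. The limma adjusted p was 0.596 for CYBA and above it for the others.

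Of 17 genes listed around the control of NQO1 and glutathione conjugation 11 were measured, with a median of -0.11. Among the regulators listed, AHR and ARNT were measured, and NFE2L2 and KEAP1 were not. The list also holds GCLC and GCLM of glutathione synthesis, TXNRD1 and HNMT, the last within the Tag range on every array. At an unadjusted limma p of at most 0.05, 1 was lower and 0 were higher, against 5.92% and 3.62% of all probe sets. MGST1, a membrane glutathione transferase, had 732.6, 791.6 and 635.0 on Dox arrays and 1101.1, 969.4 and 850.9 on PBS arrays, with no overlap (log2 difference -0.43, SE 0.18, limma adjusted p = 0.521). GSTM3, a cytosolic glutathione transferase, and GCLM, the modifier subunit of the enzyme that starts glutathione synthesis, lay at 0.81 and 0.70. Both overlapped between groups, with Dox replicate 1 low and Dox replicates 2 and 3 high, so that leaving out 1 array gave 0.46 (Dox replicate 3) to 1.28 (Dox replicate 1) for GSTM3 and 0.13 (Dox replicate 3) to 1.59 (Dox replicate 1) for GCLM.

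The efflux pumps overlapped between groups. ABCB1, P-glycoprotein, which exports Dox and is found at the blood-facing surface of capillary endothelium, had signals at its brightest probe set of 36.5, 49.9 and 35.8 on Dox arrays and 28.5, 38.4 and 48.5 on PBS arrays. The groups overlapped widely. The log2 difference was 0.10 (SE 0.31, 95% confidence interval -0.60 to 0.80, limma adjusted p = 0.926), and -0.10 without PBS replicate 1. Neither of the other ABCB1 probe sets exceeded the Tag signals of any array, and no fold change is given for them.

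ABCG2, the breast cancer resistance protein, another exporter of anthracyclines, had signals at its brightest probe set of 129.6, 211.1 and 101.8 on Dox arrays and 178.4, 161.6 and 125.5 on PBS arrays. The Dox values enclosed the PBS values, with a log2 difference of -0.13 (SE 0.30, 95% confidence interval -0.81 to 0.56, limma adjusted p = 0.901). The second probe set had 19.8, 19.6 and 15.8 on Dox arrays and 30.7, 31.4 and 18.2 on PBS arrays. It lay at -0.51 (SE 0.34, limma adjusted p = 0.628), with PBS replicate 3 among the Dox values.

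Because both pumps are made by endothelium, they were also set against 9 endothelial markers of 10 listed on the same array. The summed signal of these markers was 1348.2 to 1403.7 on Dox arrays and 1470.1 to 2248.0 on PBS arrays, highest on PBS replicate 1. The median log2 difference was -0.56, with 7 of the 9 markers below 0 and 2, FLT1 (0.48) and VWF (0.15), above. At an unadjusted limma p of at most 0.05, 2 markers, CDH5 and TIE1, were lower, against 5.92% of all probe sets. KDR exceeded the Tag signal on only 3 arrays. Relative to the mean log2 signal of the endothelial list, ABCB1 was higher on Dox arrays by 0.54 log2 units (exact permutation p = 0.3) and ABCG2 by 0.31 (exact permutation p = 0.4). The groups overlapped for both, and the part of endothelial content in the pump signals was not tested.

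Of 23 other ABC transporters and carriers listed 8 were measured, 4 of them above the Tag range on at least 3 arrays. The median of the 8 was 0.12, and -0.41 with dim probe sets left out. At an unadjusted limma p of at most 0.05, 1 of the 8 was higher, against 3.62% of all probe sets. It was ABCA1, the cholesterol exporter, with 50.4, 116.0 and 146.9 on Dox arrays and 28.5, 46.8 and 61.3 on PBS arrays. Its groups overlapped through Dox replicate 1 (log2 difference 1.13, SE 0.45, limma adjusted p = 0.521). SLC22A5, the carnitine carrier, lay at -1.12 through Dox replicate 3, which had a signal of 6.8 against 27.2 or more on PBS arrays, and at -0.44 without it. ABCB6, a porphyrin transporter, lay at -0.62 with overlap between groups, and at -0.23 without Dox replicate 3.

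**Figure D3:**
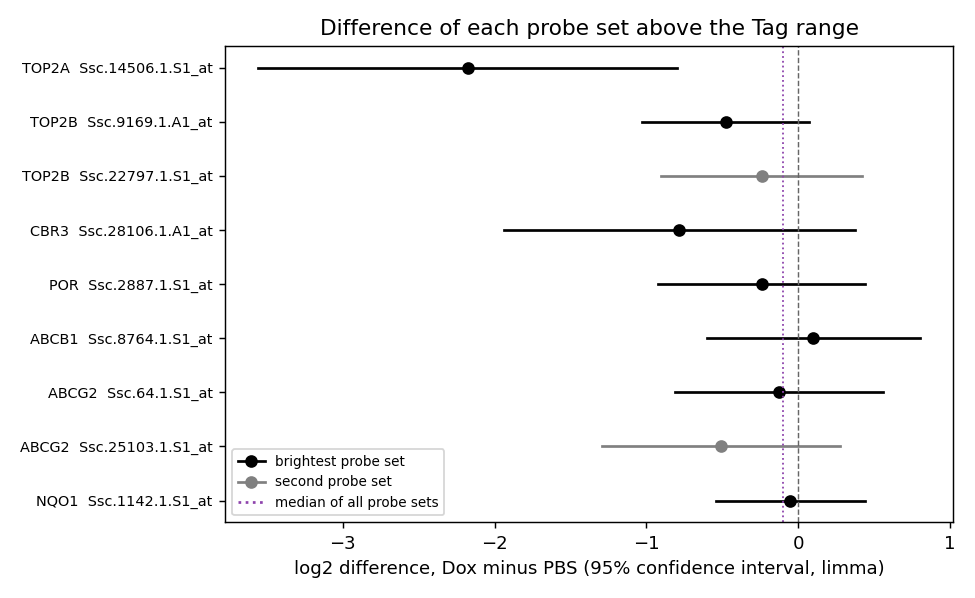
Log2 difference, Dox minus PBS, with its 95% confidence interval from limma for the 9 probe sets of these genes that exceeded the highest Tag signal on at least 5 arrays, with second probe sets in grey, a dashed line at 0 and a dotted line at the median of all probe sets. The interval of TOP2A, -3.56 to -0.80, is the only one that leaves out 0, and it is not adjusted for multiple testing.

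**Figure D4:**
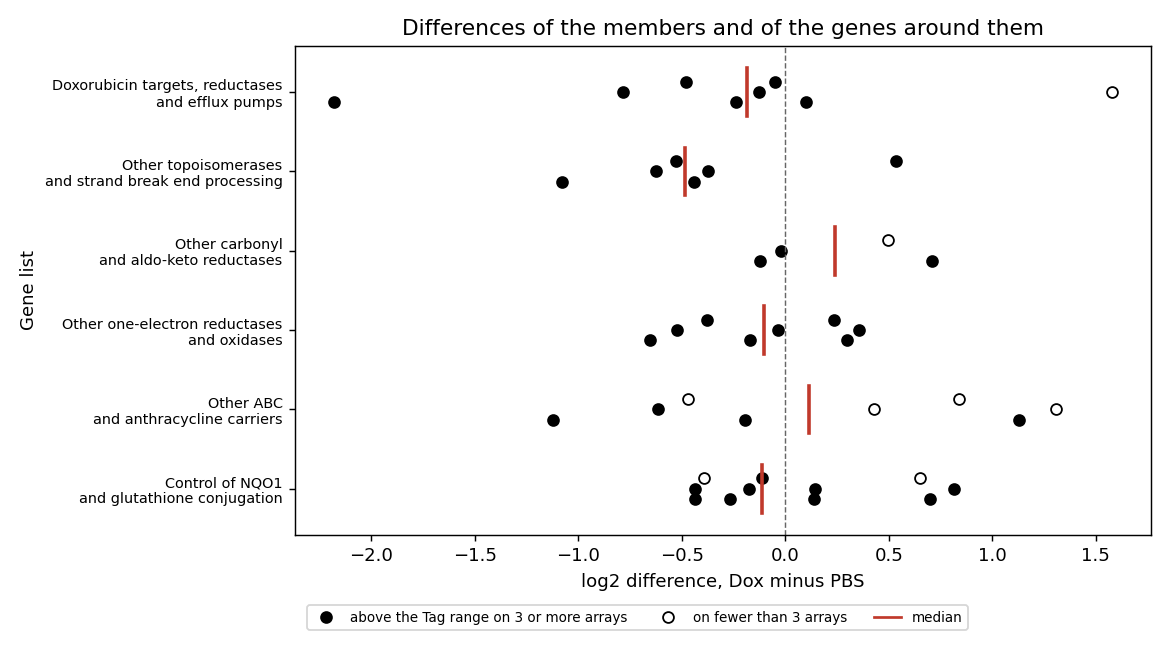
Log2 difference, Dox minus PBS, of each measured gene at its brightest probe set, for the 8 genes of this report (top) and for the lists of genes around them, with filled points for genes that exceeded the Tag range on at least 3 arrays, open points for the others and a red line at the median of each list. TOP2A stands at -2.18 while the medians of all 6 groups of genes lie between -0.48 and 0.24, and CBR1 is the open point at the right of its row.

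The members varied with single arrays as well as with the groups, and with 1 animal per array the animal and the array cannot be told apart. Over the 6 arrays the log2 signal of TOP2B went with that of POR (r = 0.86), and both had their lowest value on Dox replicate 3. ABCB1 and NQO1 ran opposite to each other (r = -0.86), and TOP2A and TOP2B had r = 0.72. These coefficients rest on the same 6 arrays and carry no test.

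The arrays differed in ways that bear on these values. Hybridization controls added to every sample had a geometric mean signal of 954, 887 and 1239 on Dox arrays and 701, 746 and 769 on PBS arrays, without overlap and highest on Dox replicate 3. The ratio of the 3' to the 5' actin probe sets, a measure of RNA integrity, was 6.04, 3.96 and 2.20 on Dox arrays and 2.63, 2.28 and 1.96 on PBS arrays, with the highest value on Dox replicate 1. The same ratio for GAPDH was 2.93, 1.33 and 1.24 on Dox arrays and 1.68, 1.28 and 1.18 on PBS arrays. It too was highest on Dox replicate 1, and the groups overlapped. Cardiac muscle markers identified the tissue, with 8 of 11 measured and a summed signal of 43849.8 to 57003.0 on Dox arrays and 36462.8 to 43830.7 on PBS arrays. Of these 8 markers 7 had a log2 difference above 0, ACTC1 at 0.09 among them, and 1, RYR2 (-0.29), lay below. Fibroblast markers summed to 874.4 to 2148.1 on Dox arrays and 2330.3 to 3186.7 on PBS arrays. Macrophage and leukocyte markers summed to 371.4 to 539.4 on Dox arrays and 295.6 to 398.4 on PBS arrays, with overlap. CD163 made up most of the latter sum on every array. Its signal was 250.7, 459.2 and 299.8 on Dox arrays and 190.3, 265.9 and 208 on PBS arrays. Of the 5 macrophage and leukocyte markers 3 had a log2 difference above 0 and 2, AIF1 (-0.63) and ITGAM (-0.82), below. PTPRC and ITGAM exceeded the Tag signal on only 1 and 2 arrays. The part of these differences in the values of the 8 genes was not tested.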

How the data were processed

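Total RNA was hybridized to 6 arrays, and the deposited intensities are linear MAS5 signals that the authors obtained from GCOS 1.4 at default settings. Scanner files were not used here. Of 24123 probe sets 124 array controls were left out. Signals of 0 (in 311 probe sets) were raised to 0.1 before log2. In R 4.3.3, limma 3.58.1 was fitted to all 6 arrays (lmFit, eBayes with an intensity trend, Benjamini-Hochberg over 23999 probe sets), without covariates. An exact two-sided permutation test was added for single genes. Scripts were checked on simulated data. Arrays were assigned to groups from the sample labels, and the number of arrays limits the precision.

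The 10 genes, the gene lists and the rules were chosen with earlier results of these data known. Named were all members at every probe set, up to 3 genes of smallest unadjusted p per pathway list among those above the highest Tag signal on at least 3 arrays and the 3 genes most like TOP2A and TOP2B. Of these, 1 gene is not reported here. Other genes were named after their values were seen. Where 1 value per gene was needed the brightest probe set was used. Gene names are those of the platform annotation, in which 10069 probe sets have 1 symbol, 198 several and 13732 none. Alternatives were other normalizations, an offset of 16, a filter on dim probe sets, no trend, array weights, the methods' t-test, the replicate block, the mean over a gene's probe sets and leaving out each array. Scaling to hybridization controls, all alternatives for the TOP2A to TOP2B ratio and the proliferation list, and those for the pathway lists other than leaving out an array were added after seeing the data. Plots were made with Python 3.11.15 and matplotlib 3.10.9. Sequences were not printed, since none of the tables used here holds them.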

Additional observations from a re-analysis of the deposited data

How the results depend on the processing

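Precision was limited by 3 animals a group, and single arrays decided several values. The count of called probe sets was 0 to 14 when 1 array was left out, 14 of them without Dox replicate 1, and 1356 at an unadjusted p with a fold of at least 2. No member was called under any alternative. The count of members at an unadjusted p of at most 0.05, 1 as reported, was 0 by the methods' t-test and 3 after scaling to hybridization controls, and 1 to 2 when 1 array was left out, with 2 without Dox replicate 1. The share of all probe sets at that p was 9.54% as reported, 7.16% by the methods' t-test, 19.9% after that scaling and 16.2% without Dox replicate 1. At their brightest probe sets TOP2A, TOP2B and CBR3 stayed lower under every alternative run. The second TOP2B probe set lay near 0 under 2 of them, at -0.0029 with quantile normalization and -0.018 with cyclic loess.

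The scaling to hybridization controls, chosen after seeing the data, moved the median of all probe sets to -0.56, against -0.10 as reported. Under it the list medians were -0.95 for topoisomerases and end processing, -0.22 for carbonyl and aldo-keto reductases, -0.56 for single-electron reductases and -0.34 for carriers, and ABCB1 lay at -0.36, FDX1 at -0.23 and NQO2 at -0.16, these 3 genes all above that median. With dim probe sets left out the medians were -0.019 for carbonyl and aldo-keto reductases and -0.41 for carriers, since fewer genes remain. As reported they were 0.24 and 0.12, so both changed sign. Leaving out 1 array gave -0.19 to 0.62 for the carbonyl list and -0.26 to 0.0062 for the single-electron list. The proliferation median was -1.04 with an offset before log2 and -2.13 to -1.04 when 1 array was left out.

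Differences near 0 changed sign, and the cause was not tested. Quantile normalization gave 0.016 for AKR7A2 and 0.051 for AKR1A1, and cyclic loess 0.029 for AKR7A2, 0.057 for AKR1A1 and 0.00023 for ABCG2. Array weights gave 0.014 for POR, 0.26 for ABCG2 and 0.089 for AKR1A1. The mean of all ABCB1 probe sets, most of which lie in the Tag range, gave -1.04. Leaving out 1 array gave -0.43 to 0.085 for POR, -0.10 to 0.28 for ABCB1, -0.42 to 0.11 for ABCG2, -0.16 to 0.11 for NQO1, -0.25 to 0.045 for AKR7A2 and -0.30 to 0.23 for AKR1A1.

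Arrays of the same replicate number did not vary together, with correlations of their deviations from the group means of -0.05, 0.06 and -0.11, and 2 of 6 arrays correlated best with their own number. With the replicate number as a block limma called 0 probe sets, 2313 probe sets had an unadjusted p of at most 0.05, against 2290 without it, and 1 member gene did, as without it.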
